A study of Mus musculus with 70 samples.

Results

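Nefl, Nefm, Nefh, Ina and Prph encode the intermediate filament proteins of neurons, and they were followed by symbol across cerebral cortex and striatum of hypothyroid, knockout and control mice. These are 5 of the 38293 gene lines counted in each library, and each of the 5 symbols matched 1 line. RNA was sequenced from 10 groups of tissue and condition, with 7 libraries each and 70 in all. WT-MMI were wild-type C57BL/6J males made hypothyroid through the water of their dams, which carried methimazole (0.02%), a drug that stops the thyroid from making its hormones, together with perchlorate (1% KClO4), which keeps iodide out of the gland. The water was given from embryonic day 9 to postnatal day 21. Mct8Dio2 KO is a double-knockout line, and Dio2 is the gene of the type 2 deiodinase, which turns T4 into the active hormone T3. WT were the wild types to which WT-MMI and Mct8Dio2 KO were compared. Mct8Slco1c1 KO is a double-knockout line, and Slco1c1 encodes the T4 transporter OATP1C1. WT (Mct8Slco1c1 ko) were the wild types labelled for that line, and they served as its controls. Tissue of the hypothyroid and knockout mice was taken on postnatal days 21 to 23. The labels do not give the age of the wild types, the sex of the other groups, whether a library pools animals, or whether the 2 tissues of one number came from the same animal, so p-values measure the spread between libraries.

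Neurofilaments are the rope-like polymers that fill large axons, set their calibre and are built in the cell body before they travel down the axon. The light chain NfL (Nefl) forms the core of the polymer, and the middle and heavy chains NfM (Nefm) and NfH (Nefh) co-assemble with it and carry long tails. These tails hold lysine-serine-proline (KSP) motifs, many in NfH and few in mouse NfM, whose serines are phosphorylated in the axon. Alpha-internexin (Ina) appears early in neuronal development and is a further subunit of filaments in the central nervous system, and peripherin (Prph) belongs mainly to neurons that send axons out of the brain and spinal cord and to sensory ganglia.

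The tails are where NfM and NfH differ from the other subunits, and the stretch with the most KSP motifs in each shows it. Each is 120 bases of coding sequence of the mouse transcript in GENCODE release M21 (build GRCm38), written 5′ to 3′ in the sense of the transcript. Capitals mark codon triplets for lysine, serine and proline in that order. The Nefh stretch runs from codon 521 to 560 of Nefh-201, in exon 4 of 4, on chromosome 11 from 4940938 to 4941057 of the minus strand, and holds 7 such triplets. The Nefm stretch runs from codon 468 to 507 of Nefm-201, in exon 3 of 3, on chromosome 14 from 68121063 to 68121182 of the minus strand, and holds 2.
Nefh-201: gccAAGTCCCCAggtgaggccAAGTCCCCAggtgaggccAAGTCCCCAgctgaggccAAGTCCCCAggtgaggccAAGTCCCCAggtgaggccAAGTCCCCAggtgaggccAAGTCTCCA
Nefm-201: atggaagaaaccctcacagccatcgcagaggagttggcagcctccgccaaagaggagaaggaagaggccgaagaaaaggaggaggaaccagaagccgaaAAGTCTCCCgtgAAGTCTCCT

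Over the whole coding sequence Nefh-201, with 1090 codons, had 51 KSP triplets and Nefm-201, with 848 codons, had 4. The Nefl, Ina and Prph transcripts had 0.

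The genes lie at 4 places in the genome (GRCm38, GENCODE M21). Nefl (ENSMUSG00000022055) is on chromosome 14 from 68083863 to 68089095 on the plus strand, and Nefm (ENSMUSG00000022054) spans 68082590 to 68124846 on the minus strand of the same chromosome. One annotated Nefm transcript, Nefm-202, has a last exon that covers 1108 exon bases of Nefl on the opposite strand, and Nefm-201 shares none of them. Nefh (ENSMUSG00000020396) is on chromosome 11 from 4938754 to 4948064, Ina (ENSMUSG00000034336) on chromosome 19 from 47014698 to 47025327 and Prph (ENSMUSG00000023484) on chromosome 15 from 99055174 to 99058978. Ina shares 456 exon bases with Nt5c2 on the opposite strand. The library kit did not keep strand, so reads from these shared bases cannot be assigned to Nefl or Nefm, or to Ina or Nt5c2. No stretch of 75 bases, the read length, in Nefm-201, Nefh or Prph transcripts occurred in a transcript of another gene.

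Each library held between 7802957 and 22485839 counts in genes. Levels are given as CPM, the library-size unit of edgeR, after TMM scaling over all 70 libraries. A change is called where the adjusted p of edgeR is under 0.05 over all genes tested in that comparison. In the knockouts, Dio2 fell in Mct8Dio2 KO (log2 change -4.44 in striatum and -4.82 in cortex), and Slco1c1 fell in Mct8Slco1c1 KO (-0.90 in striatum and -0.97 in cortex). By their labels both lines share a knockout of Mct8, which was not analysed here. Over 584 genes that separate the tissues of the controls, placed at 1 for striatum and 0 for cortex, the library labelled striatum Mct8Slco1c1 KO 7 lay at -0.03 and the library labelled cortex Mct8Slco1c1 KO 7 at 0.92. The other striatum libraries lay between 0.81 and 1.09 and the other cortex libraries between -0.11 and 0.11. In the library labelled cortex Mct8Slco1c1 KO 1, 39.7% of alignments were not unique. These 3 libraries stand apart and were kept as labelled. Where the direction or call of one of the 5 genes in Mct8Slco1c1 KO moves without them, it is given both ways. The summed level of 10 markers of medium spiny neurons, the main neurons of striatum, was 8316 to 11230 CPM in striatum of WT and 399 to 991 CPM in cortex of WT.

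Per length, Nefl and Nefm were the most abundant of the 5 genes in striatum of the controls, in an order that turns with the length taken for Nefm, and Nefl was in cortex. Prph was scarce. Divided by the summed exon length in kilobases, Nefl measured 70.7 ± 6.12 CPM per kilobase in striatum of WT and 102 ± 8.46 in cortex of WT (SD, n = 7 each). On that scale Ina measured 49.6 ± 6.02 in striatum and 65.7 ± 6.73 in cortex. Nefm measured 53.9 ± 9.23 in striatum and 52.8 ± 7.74 in cortex, with its exon length counted over both transcripts, and 93.5 in striatum and 91.5 in cortex when the length of Nefm-201 alone was used. Against 70.7 for Nefl in striatum, Nefm is thus lower by both transcripts and higher by Nefm-201 alone, and its longest transcript gives 84.7. With the bases shared with Nefm left out of the length of Nefl, that gene stood at 105 in striatum and 152 in cortex. Nefh measured 11.7 ± 2.79 in striatum and 17.0 ± 1.92 in cortex, and Prph 0.331 ± 0.210 in striatum and 0.765 ± 0.183 in cortex.

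Between the tissues of control mice, Nefl, Ina and Prph were lower in striatum than in cortex, and Nefm was not told apart in the fit of all groups. In WT, the log2 difference of striatum against cortex was -0.53 ± 0.09 (SE) for Nefl, -0.40 ± 0.09 for Ina and -1.20 ± 0.42 for Prph, with adjusted p of 2.43e-06, 9.78e-05 and 0.0129. Nefh was lower in striatum of WT as well (-0.54 ± 0.13, adjusted p = 0.000229), but in WT (Mct8Slco1c1 ko) its difference was -0.02 ± 0.13 (adjusted p = 0.926). Nefm differed by 0.03 ± 0.09 in WT and 0.12 ± 0.09 in WT (Mct8Slco1c1 ko), with adjusted p of 0.793 and 0.264. With only the groups compared in the edgeR fit, it passed as higher in striatum of WT (Mct8Slco1c1 ko) (0.12 ± 0.05, adjusted p = 0.034). Of the 5 genes, 4 were called lower in WT and 3 in WT (Mct8Slco1c1 ko), where 25.4% and 24.2% of the 16814 genes tested were lower.

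Ordered by mean CPM over the 10 groups, Nefm fell into 2 blocks with a gap between them. Its 4 control groups had means from 287 to 312 CPM and its 6 hypothyroid and knockout groups had means from 70.8 to 117 CPM, and the lowest group of the first block did not overlap the highest of the second. Neighbours within each block overlapped. For Nefl, the controls of cortex (359 and 344 CPM) came first, then the controls of striatum (256 and 239 CPM), and striatum of WT-MMI came last at 132 CPM. Neighbours in its order parted between the cortex controls and the striatum controls, and between cortex of Mct8Dio2 KO (216 CPM) and cortex of WT-MMI (178 CPM). With the libraries that stand apart, cortex of Mct8Slco1c1 KO, at 147 to 386 CPM, ran across both gaps. Striatum of that line, at 137 to 222 CPM, ran across the lower gap. Without those libraries the ranges were 210 to 230 CPM and 137 to 161 CPM, and neither crossed a gap. For Nefh and Prph, every neighbour in the order overlapped the next. For Ina, neighbours in the order parted only below the 2 cortex controls, at 216 and 213 CPM. Striatum of WT, further down that order, still reached 184 CPM, above the lowest library of cortex of WT at 177 CPM.

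**Figure D1:**
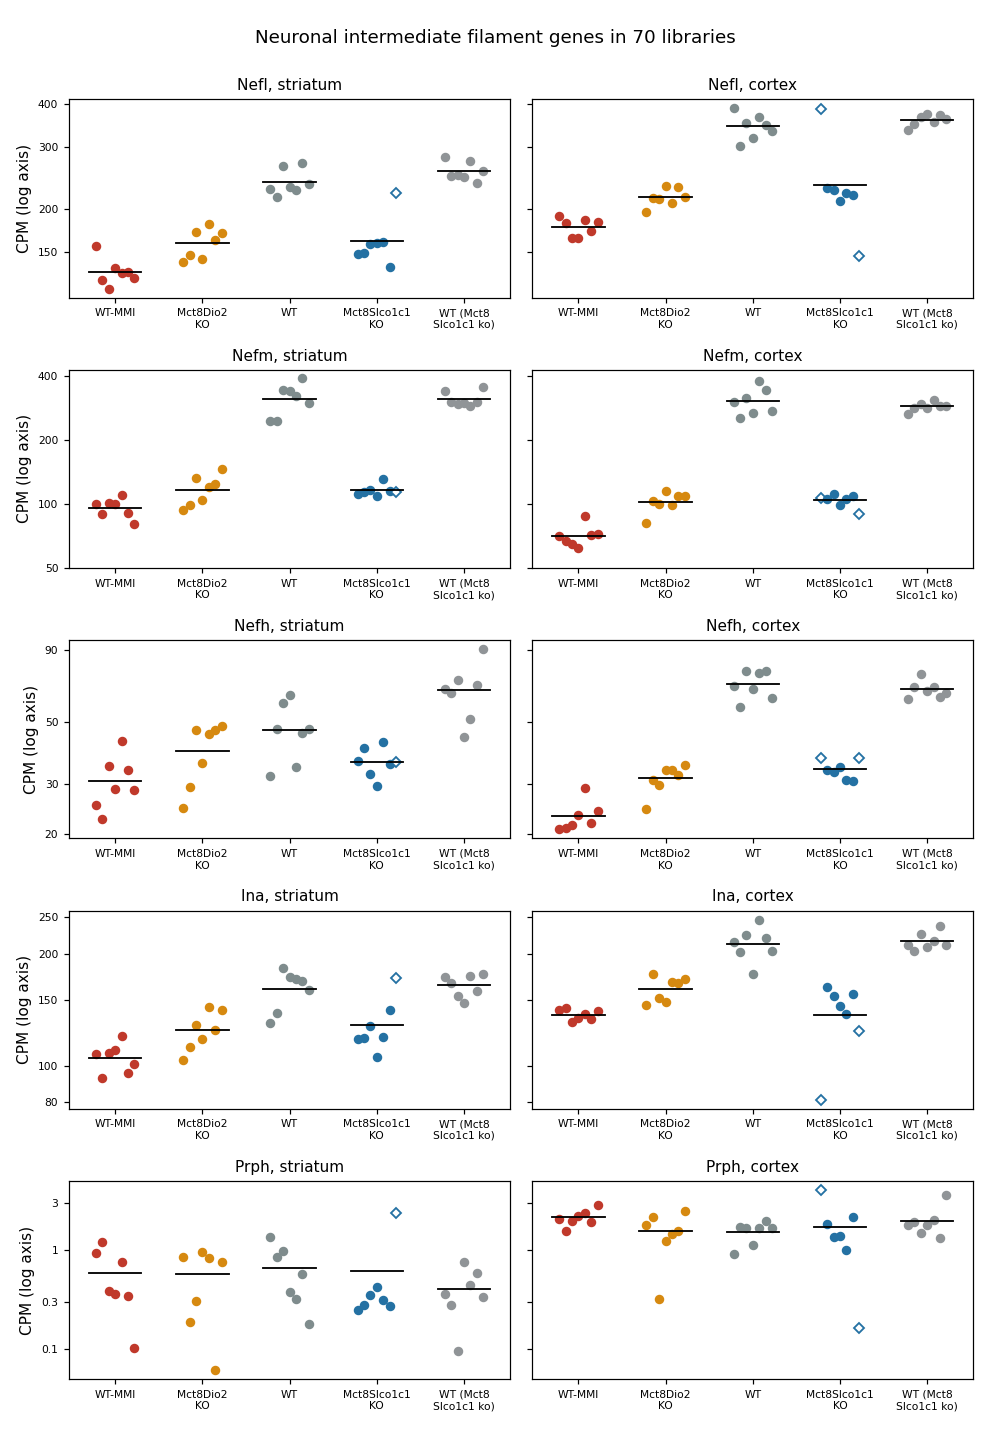
Level of each gene in each of the 70 libraries, in CPM on a log axis, with striatum at left and cortex at right; points are libraries, bars are group means, and open diamonds are the 3 libraries that stand apart. Nefm in WT-MMI, Mct8Dio2 KO and Mct8Slco1c1 KO lies wholly below the controls in both tissues, while Prph shows no such separation.

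In hypothyroid mice the 4 abundant genes fell in both tissues. In striatum of WT-MMI, 4 of the 5 genes were called lower, where 16.8% of the 16267 genes tested were. In cortex of WT-MMI, 4 of 5 were called lower against 9.74% of 16198 genes tested. Libraries outside this comparison enter the estimate of the spread and move that share. Without the 3 libraries that stand apart, 4 of 5 were again lower in each tissue, against 19.7% of all genes in striatum and 20% in cortex. Leaving out cortex Mct8Slco1c1 KO 1 alone brought the genes called lower in cortex to 2657 of 16314, against 1577 with it. The median log2 change of the 5 was -0.60 in striatum and -0.95 in cortex, and the median over all genes was 0.01 in striatum and 0.02 in cortex. In bulk tissue, fewer cells of a type and less RNA per cell cannot be told apart.

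Both knockout lines showed falls among the 5 genes too. In striatum of Mct8Dio2 KO 3 of 5 were called lower against 7.84% of all genes tested, and in cortex of that line 4 of 5 against 4.19%. Without the 3 libraries these counts were 3 and 4 of 5, against 11.1% of all genes in striatum and 11.8% in cortex. Without cortex Mct8Slco1c1 KO 1 alone, 1325 genes were called lower in cortex of Mct8Dio2 KO, and without cortex Mct8Slco1c1 KO 7 alone 1065, against 678 with all. In Mct8Slco1c1 KO 4 of 5 were called lower in striatum against 10.7% of all genes tested, and 4 of 5 in cortex against 5.85%. Without the 3 libraries the counts were again 4 of 5 in each tissue of Mct8Slco1c1 KO, where 13% of all genes in striatum and 11.6% in cortex were then lower. Without cortex Mct8Slco1c1 KO 1 alone, 1609 genes were called lower in cortex of that line, against 948 with it. WT-MMI and Mct8Dio2 KO share the same WT libraries as controls, so their changes are not independent of each other.

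Nefm, the middle chain, had the largest fall of the 5 genes in every model and tissue. In striatum it had a lowest, median and highest level of 80.7, 99.7 and 110 CPM in WT-MMI, 93.8, 120.0 and 145 CPM in Mct8Dio2 KO, and 244, 320.4 and 390.2 CPM in WT. In striatum of Mct8Slco1c1 KO it had 109, 114 and 131 CPM, against 290, 301 and 357 CPM in WT (Mct8Slco1c1 ko). No library of a model reached the lowest control. The log2 changes in striatum were -1.69 ± 0.09 in WT-MMI, -1.41 ± 0.09 in Mct8Dio2 KO and -1.42 ± 0.09 in Mct8Slco1c1 KO (edgeR, adjusted p 2.5e-16, 5.36e-14 and 5e-14).

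In cortex Nefm had 62.0, 70.3 and 87.7 CPM in WT-MMI and 81.3, 104 and 115 CPM in Mct8Dio2 KO, against 254, 303 and 378 CPM in WT. In cortex of Mct8Slco1c1 KO it had 89.7, 106 and 112 CPM, against 264, 288 and 309 CPM in WT (Mct8Slco1c1 ko). Here too every library of the 3 models lay below every control. Nefm fell by 2.10 ± 0.08 on the log2 scale in WT-MMI, 0.233 times the WT level, and ranked 2 by p among all 16198 genes tested. It fell by 1.56 ± 0.08 in Mct8Dio2 KO (rank 3) and by 1.46 ± 0.08 in Mct8Slco1c1 KO (rank 5), with adjusted p from 7.31e-20 to 1.72e-15 over the 3 models.

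Nefl, the light chain, fell in every model and tissue. In striatum its lowest, median and highest levels were 118, 130.5 and 156 CPM in WT-MMI and 141, 163 and 180.3 CPM in Mct8Dio2 KO, against 216, 231 and 271 CPM in WT. They were 137, 158 and 222 CPM in striatum of Mct8Slco1c1 KO, against 236, 250 and 282 CPM in WT (Mct8Slco1c1 ko). The 222 CPM was library 7, one of those that stand apart, and the highest level without it was 161 CPM. The ranges did not overlap. The log2 changes were -0.85 ± 0.08 in WT-MMI, -0.58 ± 0.08 in Mct8Dio2 KO and -0.65 ± 0.08 in Mct8Slco1c1 KO, with adjusted p of 1.75e-10, 1.32e-06 and 1.42e-07.

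In cortex Nefl had 165, 182 and 191 CPM in WT-MMI and 196, 214 and 232 CPM in Mct8Dio2 KO, against 302, 348 and 388 CPM in WT. It had 147, 222 and 386 CPM in cortex of Mct8Slco1c1 KO, against 335, 361 and 373 CPM in WT (Mct8Slco1c1 ko). The single library of Mct8Slco1c1 KO above the controls was number 1, one of those that stand apart, and the range of the 5 others was 210 to 230 CPM once number 7 was left out as well. The log2 changes in cortex were -0.95 ± 0.10 in WT-MMI, -0.66 ± 0.10 in Mct8Dio2 KO and -0.61 ± 0.10 in Mct8Slco1c1 KO, with adjusted p of 1.6e-08, 3.51e-05 and 7.75e-05.

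Nefh, the heavy chain and the member with the KSP-rich tail shown above, fell strongly in cortex and varied more in striatum. In cortex it had 20.7, 21.8 and 29.0 CPM in WT-MMI and 24.5, 32.4 and 34.99 CPM in Mct8Dio2 KO, against 56.5, 67.1 and 75.9 CPM in WT. It had 30.8, 33.7 and 37.3 CPM in cortex of Mct8Slco1c1 KO, against 60.4, 64.2 and 74.2 CPM in WT (Mct8Slco1c1 ko). Each model lay wholly below its controls. The log2 changes in cortex were -1.55 ± 0.08 in WT-MMI (adjusted p = 2.13e-16, rank 4 by p), -1.10 ± 0.08 in Mct8Dio2 KO (3.38e-12, rank 7) and -0.94 ± 0.08 in Mct8Slco1c1 KO (1.73e-10, rank 10).

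In striatum Nefh had 22.6, 28.9 and 42.7 CPM in WT-MMI and 24.7, 45.1 and 48.3 CPM in Mct8Dio2 KO, against 32.0, 47.1 and 62.3 CPM in WT. Only 4 of 7 WT-MMI libraries and 2 of 7 Mct8Dio2 KO libraries lay below the lowest WT library. It fell by 0.59 ± 0.16 in WT-MMI (adjusted p = 0.00618), and its change in Mct8Dio2 KO was -0.23 ± 0.16 (adjusted p = 0.378). In striatum of Mct8Slco1c1 KO Nefh had 29.6, 36.1 and 42.3 CPM, against 44.0, 65.6 and 90.6 CPM in WT (Mct8Slco1c1 ko). It fell by 0.83 ± 0.16 there (adjusted p = 0.000365), with all 7 libraries below the lowest control. The 7 listed thalamus markers had median summed levels in striatum of 98.1 CPM in Mct8Slco1c1 KO and 166 CPM in WT (Mct8Slco1c1 ko). Their medians were 132 CPM in WT, 119 CPM in WT-MMI and 117 CPM in Mct8Dio2 KO, and the ranges overlapped. How these markers relate to the Nefh values was not tested.

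Ina, alpha-internexin, fell in every model and tissue. In striatum its lowest, median and highest levels were 93.3, 108 and 120.4 CPM in WT-MMI and 104, 125 and 144 CPM in Mct8Dio2 KO, against 130.2, 169 and 184 CPM in WT. They were 106, 119.6 and 173 CPM in striatum of Mct8Slco1c1 KO, against 147, 167 and 177 CPM in WT (Mct8Slco1c1 ko). WT-MMI did not overlap WT, and the ranges of both knockouts did overlap their controls. In Mct8Slco1c1 KO the overlap came from library 7 alone, since the highest level without it was 141 CPM. The log2 changes in striatum were -0.60 ± 0.09 in WT-MMI, -0.36 ± 0.09 in Mct8Dio2 KO and -0.34 ± 0.09 in Mct8Slco1c1 KO, with adjusted p of 1.56e-06, 0.00375 and 0.00475. Without library 7 the last of these was -0.43 ± 0.08 (adjusted p = 5.78e-05).

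In cortex Ina had 131, 138 and 143 CPM in WT-MMI and 146, 167 and 177 CPM in Mct8Dio2 KO, against 177, 215 and 247 CPM in WT. It had 81.4, 145 and 163 CPM in cortex of Mct8Slco1c1 KO, against 204, 211 and 237 CPM in WT (Mct8Slco1c1 ko). The lowest of these was again library 1 of that line. The log2 changes in cortex were -0.62 ± 0.09 in WT-MMI, -0.38 ± 0.09 in Mct8Dio2 KO and -0.64 ± 0.09 in Mct8Slco1c1 KO, with adjusted p of 6.26e-06, 0.00715 and 9.73e-06. Without the libraries that stand apart, the last of these was -0.50 ± 0.06 (adjusted p = 1.53e-08).

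Prph, peripherin, had 1 to 53 counts in a library and was called in no model in the fit of all groups. In cortex it had 1.57, 2.03 and 2.87 CPM in WT-MMI and 0.319, 1.57 and 2.47 CPM in Mct8Dio2 KO, against 0.918, 1.66 and 1.94 CPM in WT. Its raw counts in cortex of WT were 9 to 40, and in striatum of WT 2 to 19. The log2 change in cortex of WT-MMI was 0.46 ± 0.31 (adjusted p = 0.331), and with only WT-MMI and WT in the fit it passed (0.44 ± 0.17, adjusted p = 0.0435). There 5 of 7 WT-MMI libraries lay above the highest WT library. In striatum of Mct8Slco1c1 KO Prph had 0.249, 0.315 and 2.37 CPM, against 0.0966, 0.361 and 0.755 CPM in WT (Mct8Slco1c1 ko). The highest of these is library 7. The change there was 0.65 ± 0.58 (adjusted p = 0.462) with that library and -0.46 ± 0.55 (adjusted p = 0.598) without it. With these counts, differences of Prph passed the test between the tissues of the controls, but none did between a model and its controls in the fit of all groups. Of 15 markers of monoaminergic, cranial motor and sensory neurons, 5 could be tested in cortex. In WT-MMI Scn10a was called higher and Tph2 lower, where 10.9% of all genes were higher and 9.74% lower. Their summed level was 6.70 to 8.69 CPM in WT-MMI and 6.93 to 12.7 CPM in WT.

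**Figure D2:**
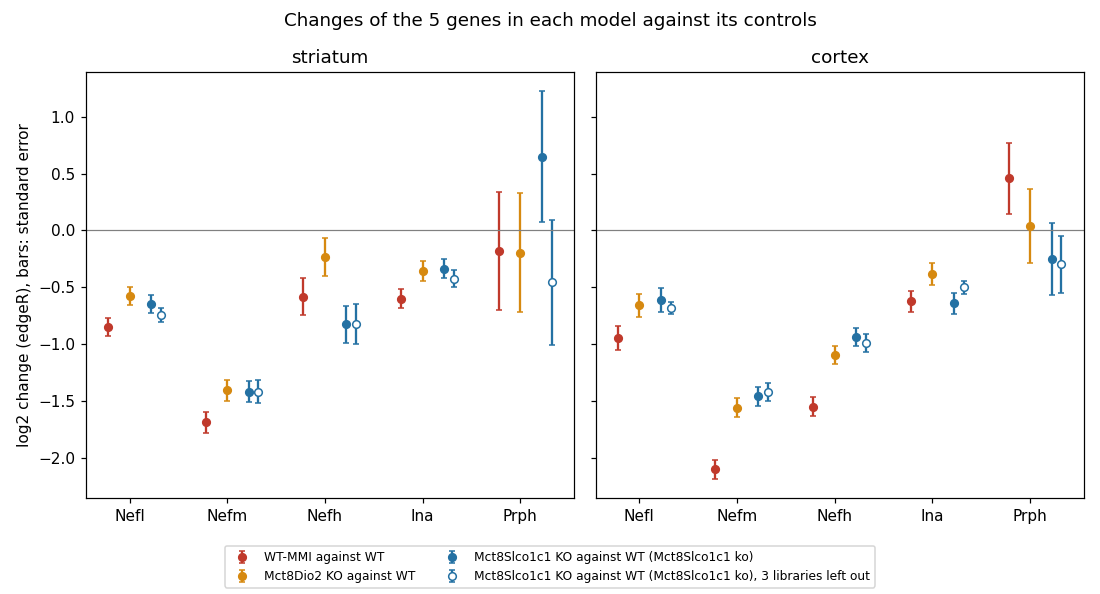
Log2 change of each gene in WT-MMI and Mct8Dio2 KO against WT and in Mct8Slco1c1 KO against WT (Mct8Slco1c1 ko), with striatum at left and cortex at right; bars are standard errors of the edgeR fit, and open circles leave out the 3 libraries that stand apart. Nefm lies lowest in every model and tissue, at -1.41 to -2.10, and no change of Prph passed the test.

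Between the 2 sets of wild types none of the 5 genes passed the test in edgeR. In WT (Mct8Slco1c1 ko) against WT, 0 of 5 genes were called in striatum and 0 of 5 in cortex by edgeR (1 and 0 by DESeq2), where 6.43% and 0.994% of all genes were called. Only Nefh in striatum had an unadjusted p under 0.05 (log2 difference 0.46 ± 0.16, unadjusted p = 0.00735, adjusted p = 0.0822), and DESeq2 called that gene. The other 4 differences in striatum ran from -0.66 for Prph to 0.10 for Nefl, and those in cortex from -0.08 for Nefm to 0.32 for Prph.

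Set against WT-MMI, some of the 5 genes were higher in Mct8Dio2 KO. In cortex of Mct8Dio2 KO against WT-MMI, Nefm was higher by 0.54 ± 0.08 (adjusted p = 3.92e-05) and Nefh by 0.46 ± 0.08 (adjusted p = 0.000377), so that 2 of 5 were called where 1.09% of all genes tested were higher. Nefl (0.29 ± 0.10) and Ina (0.24 ± 0.09) did not pass, with adjusted p of 0.156 and 0.224, although the ranges did not overlap. Without the libraries that stand apart, which belong to neither group but enter the estimate of the spread, both passed (adjusted p = 2.32e-05 and 0.00144) and 4 of 5 were called, against 5.7% of all genes. In striatum Nefl was called higher (0.27 ± 0.08, adjusted p = 0.0275), 1 of 5 genes against 3.98% of all genes. Nefm measured 0.28 ± 0.09 there (adjusted p = 0.054), Ina 0.24 ± 0.09 (0.0858) and Nefh 0.35 ± 0.17 (0.214). Without the libraries that stand apart 3 of 5 were called in striatum, against 6.8% of all genes.

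The falls in Mct8Slco1c1 KO were smaller than those in WT-MMI for Nefm and Nefh of cortex. The change in Mct8Slco1c1 KO minus the change in WT-MMI was 0.64 ± 0.11 for Nefm (adjusted p = 0.00204) and 0.61 ± 0.11 for Nefh (adjusted p = 0.00275) in cortex. These 2 of 5 genes were called where 0.364% of all genes had a higher change. Nefl measured 0.33 ± 0.15 (adjusted p = 0.304) and passed without the libraries that stand apart (0.27 ± 0.07, adjusted p = 0.0194). In striatum 0 of 5 genes were called in that difference by edgeR and 0 by DESeq2, against 3.45% of all genes, with 2 of 5, Nefm and Ina, at an unadjusted p under 0.05 (0.0443 and 0.0393).

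Between the changes of both knockout lines, no gene of the 5 was called by edgeR or DESeq2. In cortex the change in Mct8Slco1c1 KO minus that in Mct8Dio2 KO was 0.10 ± 0.11 for Nefm, 0.16 ± 0.11 for Nefh, 0.05 ± 0.15 for Nefl and -0.26 ± 0.13 for Ina, with 0 of 5 called against 0.815% of all genes and 0 with an unadjusted p under 0.05. In striatum 0 of 5 were called against 1.14%, and Nefh had an unadjusted p under 0.05 (-0.59 ± 0.23, unadjusted p = 0.0152, adjusted p = 0.289).

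In the edgeR fit of all groups, the heavy chain was the only one of the 5 genes whose fall was called different between the tissues, in WT-MMI and Mct8Dio2 KO. The change of Nefh in striatum minus its change in cortex was 0.96 ± 0.18 in WT-MMI (adjusted p = 0.000269) and 0.87 ± 0.18 in Mct8Dio2 KO (adjusted p = 0.00212). In each of these models 1 of 5 genes was called, where 1.02% and 0.482% of 16814 genes tested had a higher change in striatum. Both differences share the WT libraries of striatum, where Nefh averaged 46.7 CPM, against 64.6 CPM in WT (Mct8Slco1c1 ko). In Mct8Slco1c1 KO the difference of Nefh was 0.11 ± 0.18 (adjusted p = 0.774). There 0 of 5 genes were called by edgeR and 0 by DESeq2 against 3.38% of all genes, with Ina at an unadjusted p of 0.02. Libraries of that line that lie near the other tissue enter these values. Without the 3 that stand apart, 0 of 5 were again called by edgeR, against 2.96% of all genes. Ina then changed by -0.43 in striatum and -0.50 in cortex. Nefm differed by 0.41 ± 0.12 in WT-MMI (adjusted p = 0.0556), and passed without the 3 libraries (adjusted p = 0.0247). It also passed with DESeq2 (adjusted p = 0.0369) and, in edgeR, with the replicate block (adjusted p = 0.0185). For Nefl the differences lay between -0.04 and 0.10 in the 3 models, and none passed.

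Within a library, the mix of subunits changed with the falls. These ratios use counts per kilobase of the summed exons and carry no test. Nefm over Nefl averaged 0.428 ± 0.0519 in striatum of WT-MMI and 0.427 ± 0.0407 in striatum of Mct8Dio2 KO, against 0.760 ± 0.0903 in WT (SD, n = 7 each). In cortex it averaged 0.233 ± 0.0214 in WT-MMI and 0.277 ± 0.0167 in Mct8Dio2 KO, against 0.517 ± 0.0548 in WT. In Mct8Slco1c1 KO it was 0.426 ± 0.0642 in striatum, against 0.714 ± 0.0580 in WT (Mct8Slco1c1 ko), and 0.274 ± 0.0581 in cortex, against 0.468 ± 0.0214. Without the libraries that stand apart, the ratio of that line was 0.448 ± 0.0334 in striatum and 0.280 ± 0.00956 in cortex. None of these ranges overlapped their controls. The level of the ratio depends on the length taken for Nefm, while the differences between groups on the log2 scale do not.

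Nefh over Nefl was lower in cortex of WT-MMI (0.110 ± 0.0134) and Mct8Dio2 KO (0.123 ± 0.0113) than in WT (0.167 ± 0.0147), without overlap. In cortex of Mct8Slco1c1 KO it averaged 0.131 ± 0.0406, against 0.154 ± 0.0108 in WT (Mct8Slco1c1 ko), with overlap, and 0.125 ± 0.00827 without the libraries that stand apart, with none. In striatum it averaged 0.201 ± 0.0505 in WT-MMI and 0.207 ± 0.0360 in Mct8Dio2 KO, against 0.165 ± 0.0384 in WT, and 0.192 ± 0.0360 in Mct8Slco1c1 KO, against 0.214 ± 0.0515 in WT (Mct8Slco1c1 ko). All ranges in striatum overlapped, and the ratio of Mct8Slco1c1 KO lay on the other side of its controls. Ina over Nefl was higher in cortex of WT-MMI, at 0.808 ± 0.0281 against 0.646 ± 0.0520 in WT, without overlap. It averaged 0.783 ± 0.0685 in cortex of Mct8Dio2 KO, with overlap. In striatum the ratio averaged 0.839 ± 0.0940 in WT-MMI and 0.816 ± 0.0361 in Mct8Dio2 KO, against 0.702 ± 0.0694 in WT. Striatum of Mct8Slco1c1 KO averaged 0.838 ± 0.119, against 0.671 ± 0.0367 in WT (Mct8Slco1c1 ko), and all ranges in striatum overlapped. In cortex of Mct8Slco1c1 KO it was 0.667 ± 0.209, against 0.629 ± 0.0292 in WT (Mct8Slco1c1 ko), and without the libraries that stand apart 0.713 ± 0.0377. As a share of the 5 genes per kilobase, Nefm made up 10.7% in cortex of WT-MMI and 22.1% in cortex of WT, and Ina made up 37.2% in WT-MMI and 27.6% in WT. These shares, and their differences between groups, depend on the length taken for Nefm, here its summed exons over both transcripts.

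**Figure D3:**
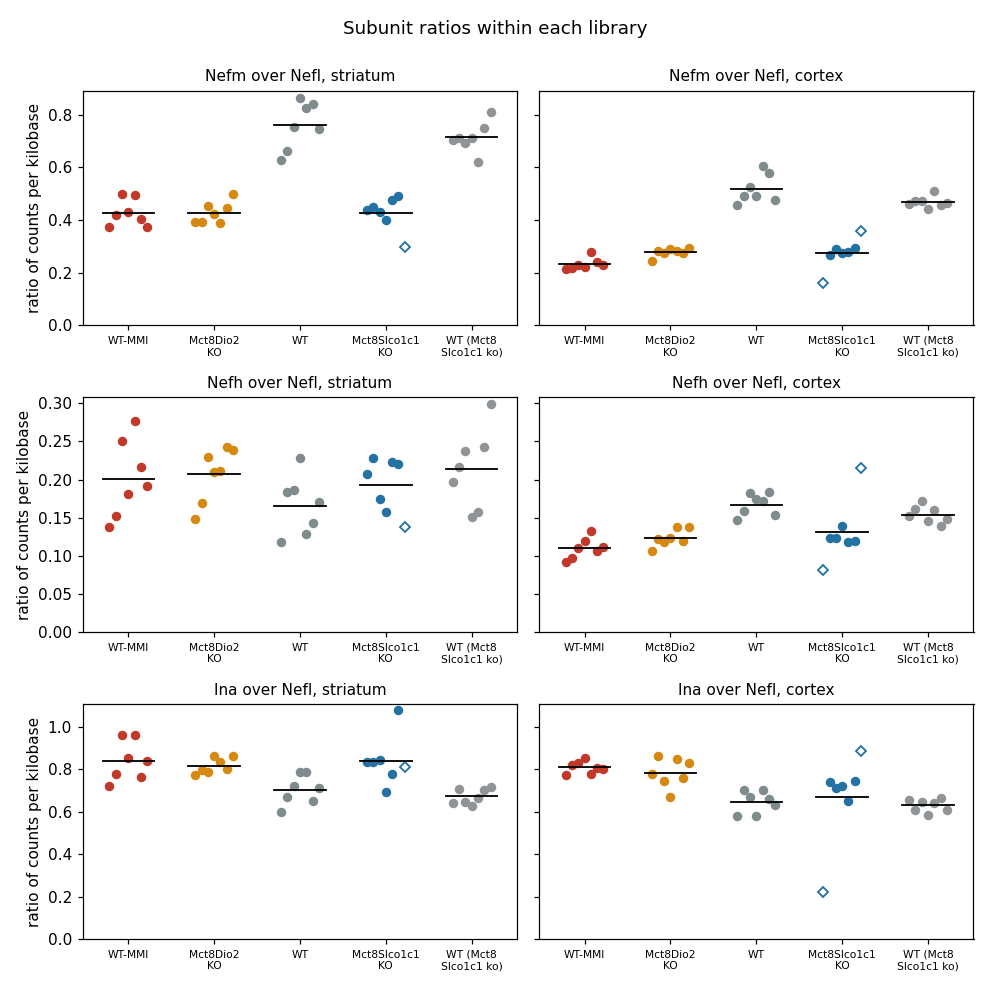
Ratio of counts per kilobase of Nefm, Nefh and Ina to Nefl in each library, with striatum at left and cortex at right; points are libraries, bars are group means, and open diamonds are the 3 libraries that stand apart. The Nefm to Nefl ratio of every model lies below that of its controls in both tissues, while the Nefh to Nefl ratio of WT-MMI and Mct8Dio2 KO separates from WT in cortex and overlaps it in striatum.

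Among other intermediate filament genes, Vim rose in both tissues of WT-MMI and Krt10 fell in striatum. The counts of list genes that follow stand beside shares over all genes in WT-MMI of 16% called higher and 16.8% lower in striatum, and 10.9% higher and 9.74% lower in cortex. Of 17 listed, 13 could be tested in each tissue. In WT-MMI Vim, the filament protein of immature glia and of vessel cells, rose by 0.82 ± 0.12 in striatum (adjusted p = 1.3e-06) and 1.23 ± 0.13 in cortex (adjusted p = 6.82e-09), and it was the only one of the 13 called higher there. Vim rose in Mct8Slco1c1 KO as well, by 0.74 ± 0.12 in striatum and 1.06 ± 0.13 in cortex. Krt10, a keratin, fell in striatum of WT-MMI (-1.16 ± 0.16), Mct8Dio2 KO (-0.80 ± 0.16) and Mct8Slco1c1 KO (-0.66 ± 0.16). Gfap, the astrocyte filament, rose in striatum of Mct8Dio2 KO (0.54 ± 0.12, adjusted p = 0.0011) and measured -0.11 ± 0.12 in striatum of WT-MMI (adjusted p = 0.51). The median change of the list in WT-MMI was -0.11 in striatum and -0.09 in cortex. Of 8 genes for proteins that link filaments, 6 were tested in striatum and 7 in cortex, with median changes of 0.10 and -0.04 in WT-MMI.

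Some kinases and other enzymes that act on neurofilament tails changed. In WT-MMI, 2 of the 24 tested were higher and 9 lower in striatum, and 1 higher and 6 lower in cortex, with list medians of -0.12 and -0.09. The counts of higher genes are below the shares over all genes, at 16% in striatum and 10.9% in cortex, and those of lower genes are above the 16.8% and 9.74%. Cdk5r2, the p39 activator of the tail kinase Cdk5, fell by 0.95 ± 0.07 in striatum and 0.68 ± 0.08 in cortex of WT-MMI, and was called in both knockout lines too. Mapk3, the kinase ERK1, rose by 0.32 ± 0.04 in striatum and 0.60 ± 0.09 in cortex of WT-MMI, and by 0.27 to 0.50 in the knockouts.

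Among 16 spectrins, ankyrins and proteins of the node of Ranvier and its neighbours, 6 fell in striatum of WT-MMI (16.8% of all genes) and 5 in cortex (9.74%), and 0 rose, with medians of -0.26 and -0.24. Kcna1, the potassium channel beside the node, fell by 1.07 ± 0.08 in striatum and 1.33 ± 0.11 in cortex of WT-MMI. Cntnap1, the axonal protein of the paranode, fell by 0.73 ± 0.09 in striatum and 0.86 ± 0.17 in cortex. In the knockouts, 5 of 16 fell in either tissue of Mct8Dio2 KO, against 7.84% of all genes in striatum and 4.19% in cortex. In Mct8Slco1c1 KO 6 fell in striatum and 5 in cortex, against 10.7% and 5.85%. Of 12 axon microtubule genes, 5 fell in striatum and 3 in cortex of WT-MMI, among them Tuba4a, an alpha-tubulin, by 0.91 ± 0.08 and 0.58 ± 0.09. Of 13 motor genes, 4 fell and 1 rose in striatum and 2 fell in cortex, where Klc2, a kinesin light chain, fell by 0.58 ± 0.13. The 2 lower motor genes in cortex and the 1 higher in striatum are near or below the shares over all genes. Of 11 genes of filament turnover and assembly, 4 fell in striatum and 3 in cortex of WT-MMI, and 0 rose. Cryab, a chaperone of intermediate filaments, fell by 0.79 ± 0.12 in striatum and 0.64 ± 0.14 in cortex.

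**Figure D4:**
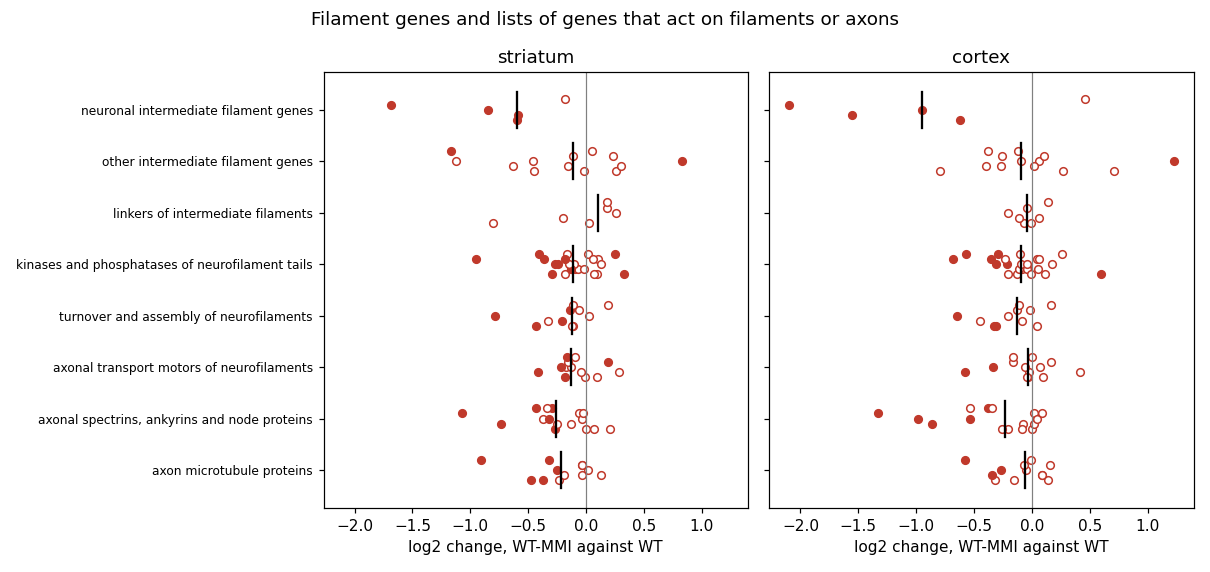
Log2 change in WT-MMI against WT of the 5 genes and of lists of related genes, with striatum at left and cortex at right; each point is a gene, filled where the adjusted p of edgeR is under 0.05, and black bars are list medians. The median of the 5 genes lies at -0.60 in striatum and -0.95 in cortex, and the other medians lie between -0.26 and 0.10.

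Markers of several cell types moved beside these genes, some lower and some higher. In WT-MMI, 4 of 8 general neuron markers fell in striatum and 3 of 8 in cortex. Their summed level was 3543 to 4162 CPM in striatum of WT-MMI, against 4014 to 4711 CPM in WT, and 5685 to 6531 CPM in cortex of WT-MMI, against 6667 to 8157 CPM in WT. Of 10 medium spiny neuron markers, 4 fell in striatum of WT-MMI, where 16.8% of all genes did, and 10 without the libraries that stand apart, where 19.7% did. They had a summed level of 4534 to 5961 CPM against 8316 to 11230 CPM in WT. In Mct8Dio2 KO 3 of these 10 fell in striatum, where 7.84% of all genes did, at a sum of 5394 to 6480 CPM. The 12 markers of cortical projection neurons had a median change of 0.03 in cortex of WT-MMI and 0 were called by edgeR. Without the 3 libraries 3 were higher and 2 lower, where 19.9% and 20% of all genes were. Of 10 markers of fast-spiking interneurons, 5 fell in cortex of WT-MMI, with a summed level of 855 to 959 CPM against 1169 to 1375 CPM in WT. The 5 that fell were led by Pvalb (-3.79 ± 0.30), Syt2 (-2.996 ± 0.27) and Hapln4 (-2.38 ± 0.14). That list also holds Gad1, Gad2, Tac1, Erbb4 and Lhx6, and it summed to 1481 to 1758 CPM in striatum of WT, above cortex. Its sum is thus not a measure of fast-spiking cells alone. Of 10 mature oligodendrocyte markers, 7 fell in cortex of WT-MMI, where 9.74% of all genes did, with a summed level of 4813 to 7356 CPM against 8728 to 11510 CPM in WT. In striatum 2 of the 10 were called lower, near the share of all genes, and 6 without the 3 libraries. Other cells' markers were higher in WT-MMI. Of 6 microglia markers 5 rose in striatum and 3 in cortex, and in striatum they summed to 423 to 516 CPM in WT-MMI and 325 to 405 CPM in WT. Of 4 markers of oligodendrocyte precursors 3 rose in each tissue, with 542 to 752 CPM in striatum of WT-MMI and 426 to 487 CPM in WT. Of 5 endothelial markers 3 rose in striatum and 4 in cortex, where the sums of 151 to 221 CPM in WT-MMI and 110 to 177 CPM in WT overlapped. All 5 red blood cell markers fell in both tissues, to 51.6 to 67.2 CPM in cortex of WT-MMI, against 117 to 241 CPM in WT. None of the listed markers of these types was at 0. Their part in the falls of the filament genes was not tested.

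The genes whose pattern was most like each member were sought among genes averaging 2 CPM or more, with the members themselves left out of the search. It ran over the libraries of a tissue without the 3 that stand apart. Likeness was Pearson's r of log2 CPM, given as a description, since all libraries share the same group differences. In cortex, over 33 libraries, the nearest to Nefl were Hapln4, Vmp1 and Pvalb (r from 0.97 to 0.98), to Nefm Hapln4, Lynx1 and Stac2 (0.98 each), and to Nefh Pvalb, Hapln4 and Stac2 (0.98 each). In striatum, over 34 libraries, they were Lynx1, Abcd2 and Fndc5 for Nefl (0.96 to 0.97), Lynx1, Sema7a and Sgpp2 for Nefm (0.98 each), and Hapln4, Adarb1 and Kcnc1 for Nefh (0.91 to 0.92). For Ina they were Tspan5, Ppme1 and Pdp1 in cortex (0.96 to 0.97) and Setd7, Pitpnc1 and Iqsec1 in striatum (0.93 to 0.94). For Prph the highest r was 0.63, and the nearest were Alg8, Adam12 and Lrwd1 in cortex and Pym1, Leprot and Actr1a in striatum.

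The 5 genes were set against each other in the same way. Over the 34 striatum libraries r was 0.97 between Nefl and Nefm and 0.74 between Nefl and Nefh. After the group means were taken out of striatum, r was 0.60 for Nefl and Nefm, 0.27 for Nefl and Nefh, and 0.65 for Nefm and Nefh. Hapln4, picked from these same libraries as the nearest to Nefh, had 0.84 with it. In cortex, over 33 libraries, r was 0.99 between Nefl and Nefm, 0.98 between Nefl and Nefh and 0.99 between Nefm and Nefh. For Nefl and Nefh the nearest gene in cortex was thus Nefm, and for Nefm it was Nefh. After taking out group means, the cortex values were 0.71 for Nefl and Nefm, 0.46 for Nefl and Nefh and 0.77 for Nefm and Nefh. With Nefh in cortex, Pvalb then had 0.60 and Hapln4 0.55. With Nefl in cortex, Pvalb then had 0.35, Hapln4 0.44 and Vmp1 0.74.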

How the data were processed

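RNA of cerebral cortex and striatum was sequenced in 70 libraries. Per the labels' protocols, unstranded libraries were made from 500 ng of RNA and read as single reads of 75 bases. The submitters' processing notes name CASAVA, FastQC, Bowtie, TopHat, HTSeq and edgeR and the build GRCm38. Their versions and settings, and the annotation for counting, are not stated there. The authors deposited whole read counts that they had not normalized, over 38293 gene lines and 5 lines at the end that name no gene. Those 5 lines entered neither library sizes nor tests. The one for alignments that were not unique held 27.5 to 39.7% of all counts in a library's file. Symbols came from GENCODE M21 for 36429 lines.

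The 35 libraries of a tissue were fitted together in edgeR 4.0.16 (R 4.3.3) by quasi-likelihood tests with the robust option, after filterByExpr and TMM scaling, on 16198 genes in cortex and 16267 in striatum. Comparisons between tissues used all 70 libraries and 16814 genes. All 5 genes passed the filter. P-values were adjusted by Benjamini-Hochberg over all genes tested, with 0.05 as threshold. Values after ± beside a log2 change are standard errors. CPM and log2 CPM (prior count 2) were computed with TMM scaling. Counts assigned to genes were 7802957 to 22485839 per library. The biological coefficient of variation was 0.133 in striatum and 0.169 in cortex. In 210 pairs of libraries of one group, chi-square per degree of freedom was at least 2.21, so none was a copy of another. The fits were tested on simulated data.

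The members and the 22 other gene lists were chosen with earlier results of these data known. Besides the members, the text names the 3 genes most like each member per tissue, up to 4 genes of each list with the smallest p in WT-MMI against WT, and every called gene among the other intermediate filament genes. Not all of these are printed. Alternatives were RLE scaling, no low-count filter, DESeq2 1.42.0, only the groups compared, leaving out libraries that stand apart, and the replicate number as a block.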

Additional observations from a re-analysis of the deposited data

Results flagged for a closer look

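Several libraries lay far from the other 6 of their group in the level of a member, by a gap over 0.568 of the range of the group. The 50 groups of a gene and condition were examined, and chance gives about 1 in 20. Nefl was 386 CPM in the library labelled cortex Mct8Slco1c1 KO 1, with the next at 230 CPM, and 222 CPM in the library labelled striatum Mct8Slco1c1 KO 7, with the next at 161 CPM. Prph was 2.37 CPM in striatum Mct8Slco1c1 KO 7, with the next at 0.425 CPM. Both are among the 3 libraries that stand apart. Prph was also high in cortex WT (Mct8Slco1c1 ko) 7, at 3.56 CPM with the next at 2 CPM. Nefm and Nefh were both highest in cortex WT-MMI 5, at 87.7 and 29.0 CPM, with the next at 71.9 and 24.1 CPM. Nefm was 131 CPM in striatum Mct8Slco1c1 KO 5, with the next at 117 CPM.

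The change of Nefh differed between the tissues. Its change in striatum minus its change in cortex was 0.96 in WT-MMI (edgeR, adjusted p = 0.000269) and 0.87 in Mct8Dio2 KO (adjusted p = 0.00212). Both values share the WT libraries, in which Nefh of striatum was lower than in the other wild types: WT (Mct8Slco1c1 ko) against WT gave 0.46, adjusted p = 0.0822 by edgeR, and DESeq2 called it. In Mct8Slco1c1 KO the difference between tissues was 0.11 ± 0.18 (adjusted p = 0.774).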

How the results depend on the processing

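Direction and call of the 5 genes were recomputed under each alternative. Of 722 values of a log2 change, 17 changed sign, 21 passed the threshold where they had not, and none of those that passed were lost. Counts of members called moved in 12 of 145 cases. Mct8Dio2 KO against WT-MMI called 4 in cortex in place of 2 with only the groups compared, without the 3 libraries that stand apart and without cortex Mct8Slco1c1 KO 1, and in striatum 2 with DESeq2 and 3 without the library labelled striatum Mct8Slco1c1 KO 7, in place of 1. WT (Mct8Slco1c1 ko) against WT called 1 in striatum with DESeq2, in place of 0. The tissue difference in WT-MMI called 2 in place of 1 with DESeq2, without the 3 libraries, without cortex Mct8Slco1c1 KO 1, without Mct8Slco1c1 KO 7 and with the replicate block.

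All sign changes were of values that did not pass. Prph in striatum of Mct8Slco1c1 KO was -0.46 without library 7, its change minus that in WT-MMI was -0.27 and minus that in Mct8Dio2 KO -0.26. The tissue difference of Prph in that line was -0.16 without the 3 libraries and -0.38 without number 7, and that of Nefl was 0.11 without cortex number 1. Ina in cortex, Mct8Slco1c1 KO minus WT-MMI, was 0.13 without the 3 libraries, 0.0797 without number 1 and 0.00774 without number 7. Against Mct8Dio2 KO, the difference was -0.0667 for Ina in striatum without number 7, and for Nefl in cortex -0.0218 without the 3 libraries and -0.11 without number 1. Ina in WT (Mct8Slco1c1 ko) against WT in cortex was -0.00293 with the replicate block. The fits without libraries held fewer samples, and the block left out none; otherwise the cause was not tested.

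Per kilobase, Nefm of WT measured 84.7 in striatum and 82.9 in cortex by its longest transcript, and 93.5 and 91.5 by Nefm-201. Nefl measured 105 and 152 without the bases shared with Nefm. A length scales a ratio alike in every library, so the length choices could not move the log2 differences of ratios between groups. Of 30 genes named as most like a member, 11 were named with all libraries kept.

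Over all genes, 55 of 145 totals of calls moved by over 1.5 times. In cortex they were 5463 to 6559 against 3350 for WT-MMI, 805 to 3760 against 1221 for Mct8Dio2 KO, 580 to 3569 against 2080 for Mct8Slco1c1 KO, 74 to 1101 against 161 between the wild types and 1090 to 1805 against 516 for Mct8Dio2 KO against WT-MMI. The difference of Mct8Slco1c1 KO from WT-MMI gave 87 to 530 against 166, and from Mct8Dio2 KO 58 to 286 against 132. In striatum they were 688 to 1864 against 1046 between the wild types, 2007 against 1212 for Mct8Dio2 KO against WT-MMI, 347 to 1092 against 561 and 113 to 564 against 185 for the same 2 differences. Between tissues they were 630 to 1322 against 418 for WT-MMI, 287 to 694 against 188 for Mct8Dio2 KO and 95 to 345 against 569 for Mct8Slco1c1 KO. Same-numbered libraries of different groups did not all deviate together. Between tissues, same-numbered libraries correlated at r of -0.00701 to 0.469 in 4 conditions, with medians of 0.11 to 0.24 against -0.07 to -0.02 for other numbers, and at -0.837 to 0.181 in Mct8Slco1c1 KO, where both libraries numbered 7 lie near the other tissue. All 7 pairs exceeded 0.1 in Mct8Dio2 KO alone. The labels repeat the numbers but do not state that one number is one animal, so the paired analysis with the replicate block is given here only, and beyond the call named above it moved 1 member's sign. Depth limits Prph, with 2 to 19 counts per library in striatum of WT.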
